A study of Mus musculus with 2 samples.

Results

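The 9 genes described here encode cytokine receptors of the vessel wall: Il6st, Osmr and Lifr of the gp130 family, Il1r1, Tnfrsf1a, Il4ra, Csf2rb, Ifngr1 and Il10rb. They were chosen by name, and all 9 were among the 31055 features counted in both libraries. The cells were tumor endothelial cells sorted from orthotopic tumors of wild-type (WT) mice, with 1 library from KPC tumors, grown from a pancreatic cancer line, and 1 from PyMT tumors, grown from a mammary cancer line. Female C57BL6 mice aged 6 weeks were given 100000 tumor cells, and tumors were taken at day 10. KPC tumors were digested with 500 U/mL collagenase D and PyMT tumors with 400 U/mL, so tumor model, digestion and library cannot be told apart. Cells carrying CD45, EpCAM, Ter119, podoplanin or Annexin V were depleted before the sort, and how many mice gave each library is not given in the sources used here. Each tumor type is represented by 1 transplanted line, and no normal tissue was among these samples.

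Cytokine receptors turn a protein in the surrounding fluid into a signal inside the cell. The gp130 protein, encoded by Il6st, is the shared signalling chain for interleukin 6, oncostatin M and leukemia inhibitory factor, and pairs with the chains encoded by Osmr and Lifr. Most of these receptors bind Janus kinases, which phosphorylate STAT proteins, whereas the interleukin 1 and tumor necrosis factor receptors act mainly through NF-kB. Postcapillary venules are the segment at which leukocytes leave the blood, and there these signals are known to raise adhesion molecules such as the selectins and ICAM1.

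Unique molecular identifiers (UMIs), each standing for 1 captured transcript, were counted in 11744 kept cells of PyMT and 9591 of KPC, out of 12464 and 10236 barcodes holding 55547926 and 44441942 UMIs. Cells were put into classes by the UMIs of a pair of genes per class. None of the pairs included a cytokine receptor gene described here. Venule cells had at least 3 UMIs of Ackr1 and Selp (360 in PyMT, 640 in KPC), artery cells 2 of Gja5 and Sema3g (126 and 105), tip cells 3 of Apln and Angpt2 (1991 and 1302), capillary cells 2 of Car4 and Cd300lg (2597 and 1297) and lymphatic cells 3 of Mmrn1 and Prox1 (633 and 802). The libraries shared 151 barcodes after filtering. Immune RNA was low, with Ptprc, which encodes CD45, at 0 UMIs in PyMT venule cells and 3 in KPC venule cells. A list of 8 immune markers that includes Ptprc summed to 10.7 UMIs per 1000000 in PyMT and 31.4 in KPC venule cells. In these classes 3 and 10 cells had 2 or more UMIs of the list. The class set by Krt8 and Krt18 held tumor cells in KPC, where Epcam was at 170 CPM (the UMIs of a gene per 1000000 UMIs of the class). In PyMT it had Epcam at 19.7 CPM and is called Krt8/Krt18 cells here. The pericyte classes carried Pecam1 at 622 and 523 CPM, an endothelial gene. A list of 8 further capillary markers summed to 5140 CPM in capillary cells of PyMT, against 4294 in venule cells and 4282 in cells that met no gate. In KPC these sums were 13421, 4856 and 8324 CPM. By these markers the capillary class was set apart less clearly in PyMT, so the capillary classes of the tumors are not alike. With 1 library per tumor model no test of the models was possible. Intervals are exact, at 95%, and cover counting error only, and 2-fold, or 1 on the log2 scale, was taken as the size at which values were counted as apart.

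Il6st was the receptor that stood out in venule cells of both tumors. In PyMT it was at 291 CPM (264 to 319) in venule cells, 63.6 in artery, 53.1 in capillary, 34.1 in tip, 85.1 in lymphatic and 18.3 in Krt8/Krt18 cells. KPC had 216 CPM (200 to 234) in venule cells, 77.3 in artery, 86.1 in capillary, 59.1 in tip, 89.6 in lymphatic and 11.2 in tumor cells. Venule cells were highest among the classes with 50 or more cells in both libraries, and the next class was lymphatic in PyMT and pericyte, at 169 CPM, in KPC. The venule level was 5.47 times the capillary level in PyMT (log2 ratio 2.45, 2.27 to 2.63) and 2.51 times it in KPC (1.33, 1.13 to 1.53). In KPC that interval overlapped those of Csf2rb (1.20, 0.87 to 1.55) and Il1r1 (1.08, 0.76 to 1.40). Over tip cells of KPC the Il6st log2 ratio, 1.87, lay below those of Csf2rb (2.57) and Il1r1 (2.23). Over artery cells of KPC it was 1.48, beside 1.56 for Csf2rb and 1.64 for Il1r1, each of these on 8 artery UMIs. Below the venule class the order was loose in KPC, where each step between neighbors from fibroblast cells down to tip cells lay within counting error.

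**Figure D1:**
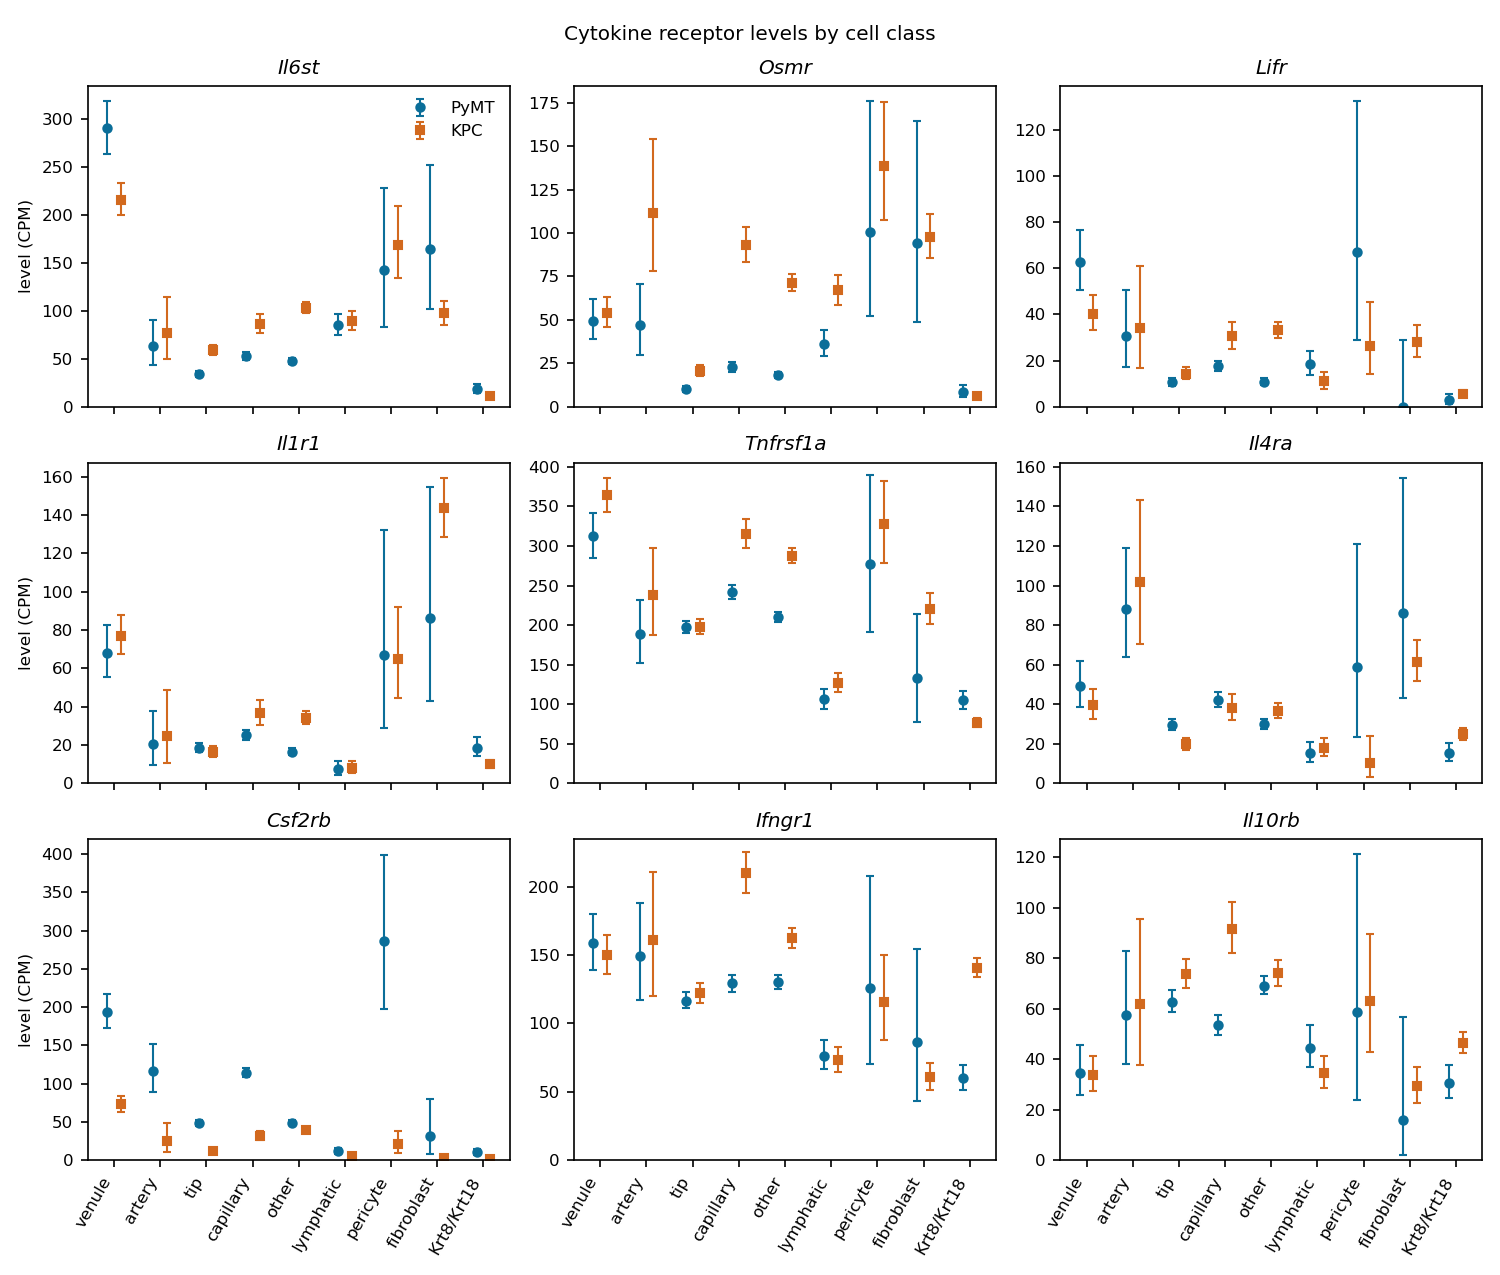
Level of each receptor in CPM (vertical axes, linear, from 0) by cell class in the PyMT (circles) and KPC (squares) libraries, with exact 95% counting intervals. Il6st peaked in venule cells at 291 and 216 CPM, Il4ra in artery cells among endothelial classes, and Csf2rb lay lower in KPC than in PyMT in every endothelial class.

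The gp130 partner chains were split between the tumors. Lifr, whose product binds leukemia inhibitory factor, was at 62.7 CPM in venule and 17.6 in capillary cells of PyMT (log2 ratio 1.84, 1.47 to 2.19). In KPC it was at 40.3 and 30.5 CPM, a log2 ratio of 0.40 (0.01 to 0.79). Lifr was therefore past 2-fold in PyMT only by this count, and the difference between the tumors was not tested. Osmr, which encodes the oncostatin M binding chain, was at 49.3 CPM in venule, 47.2 in artery, 22.7 in capillary and 9.91 in tip cells of PyMT. In KPC it was at 54.0, 111, 93.1 and 20.5 CPM in the same classes. The venule levels of Osmr lay within counting error of each other, whereas its capillary level in KPC lay above the venule level. The venule over capillary log2 ratio of Osmr was 1.12 (0.73 to 1.49) in PyMT and -0.79 (-1.07 to -0.51) in KPC. Tip cells had the lowest Osmr among the blood vessel classes of both libraries. Both genes lie on chromosome 15, Osmr from 6813577 to 6874969 on the reverse strand and Lifr from 7090614 to 7197489 on the forward strand.

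The venule class of KPC was deeper than its capillary class, at a median of 3837 against 1879 UMIs per cell. Immediate early genes, whose transcripts appear within minutes of a stimulus, were also unequal between these classes. The summed level of Fos, Jun, Junb, Atf3 and Egr1, a list chosen after the values were seen, was 7756 CPM in capillary and 4759 in venule cells of KPC, against 1856 and 2516 in PyMT. The part of these differences in the Osmr result was not tested. After thinning to 2000 UMIs per cell the venule over capillary log2 ratio of Osmr in KPC was -0.37. Thinning left out 700 of the 1297 KPC capillary cells and 107 of the 640 venule cells. At that depth 14.1% of capillary cells (11.4 to 17.1) and 12.0% of venule cells (9.37 to 15.1) had an Osmr UMI, so the intervals overlapped. With the gates applied in reverse order the ratio was -0.09.

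Il1r1, which encodes the signalling receptor for interleukin 1, was higher in venule than in capillary, tip and artery cells of both tumors. Its levels in PyMT were 68.0 CPM in venule, 25.2 in capillary, 18.5 in tip and 20.5 in artery cells. In KPC they were 77.2, 36.6, 16.4 and 24.7 CPM. The venule over capillary log2 ratio was 1.43 (1.10 to 1.76) in PyMT and 1.08 (0.76 to 1.40) in KPC. Fibroblasts of KPC, at 143 CPM, lay above the venule cells, and lymphatic cells had 7.50 CPM in PyMT and 7.92 in KPC. The accessory chain Il1rap was at 6.67 CPM in PyMT and 3.41 in KPC venule cells.

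Il6st and Il1r1 were the 2 genes of the 9 at least 2-fold higher in venule than in capillary cells of both libraries. The interval of Il1r1 in KPC, 0.76 to 1.40 on the log2 scale, spanned 2-fold. For both genes the sequence before the start sites is shown. Each is a run of 250 bases ending at the base before a RefSeq start site (GRCm38.p6), on the forward strand, and none overlaps an annotated exon. Capitals mark the match to the NF-kB motif (GGG, then NNN, then TTCC), read on either strand.
Il6st, chr13:112463820-112464069: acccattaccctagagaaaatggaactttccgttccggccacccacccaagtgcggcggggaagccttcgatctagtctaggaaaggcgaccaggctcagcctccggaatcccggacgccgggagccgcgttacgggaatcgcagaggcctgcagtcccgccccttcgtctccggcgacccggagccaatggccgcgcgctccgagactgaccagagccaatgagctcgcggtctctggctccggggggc
Il1r1, start 1, chr1:40224830-40225079: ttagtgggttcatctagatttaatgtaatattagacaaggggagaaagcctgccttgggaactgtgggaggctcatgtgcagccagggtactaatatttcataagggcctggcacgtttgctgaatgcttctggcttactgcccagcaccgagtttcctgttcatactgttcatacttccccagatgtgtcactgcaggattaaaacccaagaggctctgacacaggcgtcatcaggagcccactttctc
Il1r1, start 2, chr1:40266336-40266585: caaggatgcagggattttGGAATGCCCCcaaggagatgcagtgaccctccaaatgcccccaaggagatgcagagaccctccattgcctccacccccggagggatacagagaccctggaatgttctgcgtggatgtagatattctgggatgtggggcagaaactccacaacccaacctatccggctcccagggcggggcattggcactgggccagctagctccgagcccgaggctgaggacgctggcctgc
The NF-kB match began at base -232 of the later Il1r1 start, and 4.65% of the 32851 windows of this length in the table held one. No match to the STAT motif TTCNNNGAA, in 7.02% of windows, or to the nuclear receptor half-site AGGTCA, in 14.0%, was found in the 3 sequences. The ETS core GGAA, in 93.4% of windows, was found 7 times before Il6st and 3 and 2 times before the Il1r1 starts, and 1 of these overlaps the NF-kB match. Matches are descriptions of the letters, and counts taken at the 3′ end of transcripts do not tell which start was in use. Il6st lies on chromosome 13 from 112464070 to 112510086 and Il1r1 on chromosome 1 from 40225080 to 40317257, both protein coding and on the forward strand (GENCODE M21, GRCm38).

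Csf2rb encodes the beta chain shared by the receptors for GM-CSF, interleukin 3 and interleukin 5. Its levels in PyMT were 194 CPM in venule, 117 in artery, 114 in capillary and 47.8 in tip cells. The KPC library had 72.7, 24.7, 31.6 and 12.3 CPM in these classes. Venule cells were highest and tip cells lowest of the blood vessel classes in both libraries, at a venule over capillary log2 ratio of 0.77 (0.58 to 0.95) in PyMT and 1.20 (0.87 to 1.55) in KPC. The gene lies on chromosome 15 from 78325752 to 78353847 on the forward strand, and its neighbor Csf2rb2, from 78282507 to 78305721 on the reverse strand, encodes a near copy that serves interleukin 3. Reads can be hard to assign between such a pair. Csf2rb2 was at 155 CPM in PyMT and 48.8 in KPC venule cells, and at 71.1 and 14.0 CPM in capillary cells. The ligand binding chain Csf2ra was at or under 0.667 CPM in the venule classes, and Il3ra, its counterpart for interleukin 3, was at 41.3 CPM in PyMT and 34.8 in KPC.

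Tnfrsf1a and Ifngr1, which encode a widely expressed tumor necrosis factor receptor and the binding chain of the interferon gamma receptor, were spread more evenly over the vessel. Tnfrsf1a was at 313 CPM in venule, 242 in capillary, 198 in tip and 189 in artery cells of PyMT. In KPC it was at 364, 315, 198 and 238 CPM. No venule ratio of Tnfrsf1a reached 2-fold, and the log2 ratios over tip cells were 0.66 in PyMT and 0.88 in KPC. Ifngr1 was at 159 CPM in venule, 150 in artery, 129 in capillary and 117 in tip cells of PyMT, and its KPC levels were 150, 161, 210 and 122. Its venule over capillary log2 ratio was 0.30 (0.09 to 0.49) in PyMT and -0.49 (-0.66 to -0.31) in KPC, where capillary cells were highest. Tumor cells of KPC had Ifngr1 at 141 CPM, a log2 ratio of -0.08 (-0.17 to 0.02) over the venule, artery, tip and capillary cells pooled, where that of Il6st was -3.10.

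Il4ra and Il10rb did not follow the venule pattern. Il4ra encodes a chain shared by the receptors for interleukins 4 and 13. It was highest, among endothelial classes, in artery cells of both tumors, at 88.2 CPM in PyMT and 102 in KPC. Its venule, capillary and tip levels were 49.3, 42.3 and 29.7 CPM in PyMT and 39.6, 38.3 and 19.7 in KPC. The artery levels rest on 43 and 33 UMIs, and the artery over capillary log2 ratio was 1.06 (0.58 to 1.51) in PyMT and 1.41 (0.82 to 1.97) in KPC. Gm44876, a counted gene, overlaps Il4ra on the opposite strand, and whether counting used strand is not given in the sources used here. Il10rb, the chain shared by the interleukin 10, interleukin 22 and interferon lambda receptors, was lowest in venule cells of the blood vessel classes. It was at 34.7 CPM in venule, 53.4 in capillary, 62.9 in tip and 57.4 in artery cells of PyMT. The KPC levels were 33.8, 91.7, 73.8 and 61.8 CPM. The venule over tip log2 ratio of Il10rb was -0.86 (-1.29 to -0.45) in PyMT and -1.13 (-1.45 to -0.82) in KPC. Gm21970, counted on the same strand, overlaps Il10rb, so reads from shared sequence are uncertain between them.

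**Figure D2:**
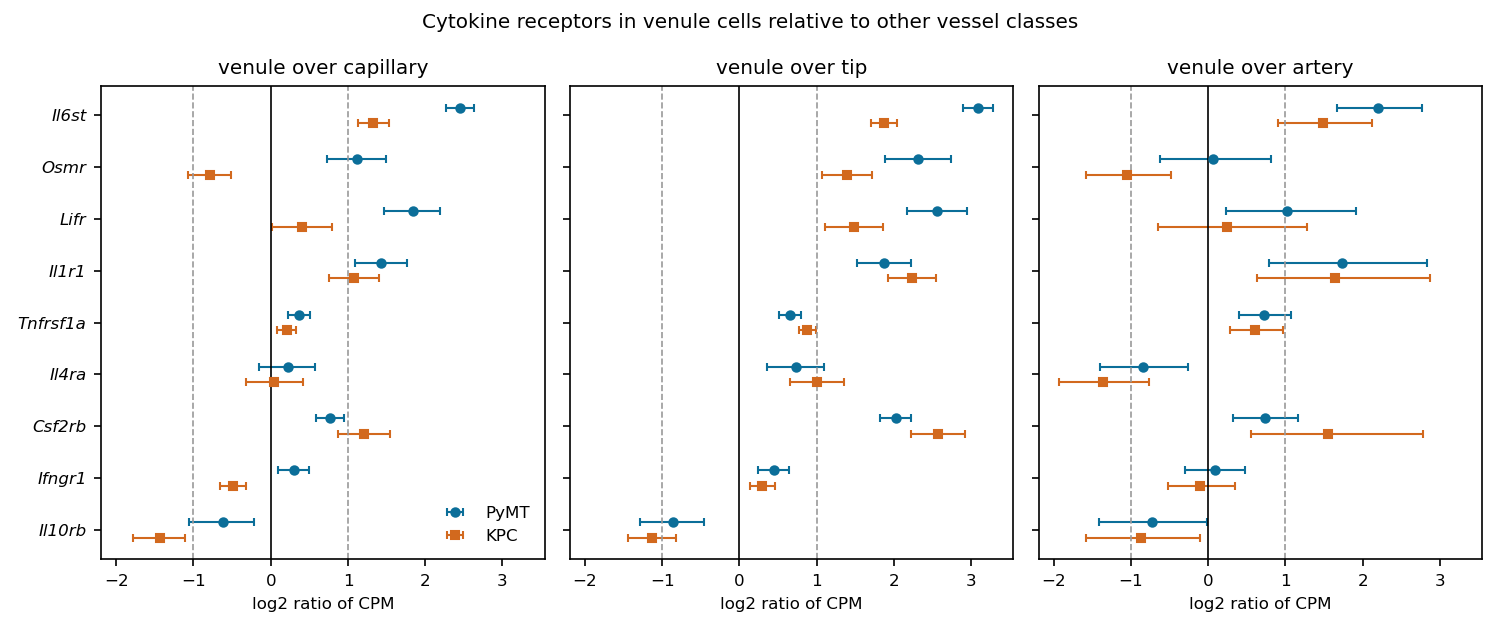
Log2 ratio of CPM in venule cells over capillary, tip and artery cells for the 9 receptors in PyMT (circles) and KPC (squares), with exact 95% counting intervals. Dashed lines mark 2-fold. Il6st and Il1r1 lay past 2-fold to the right in all 3 panels and both libraries, and Il10rb lay left of 0 throughout.

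Over all 9 receptors, 4 were at least 2-fold higher and 0 lower in venule than in capillary cells of PyMT, where 3.63% of 9204 genes were that much higher and 2.39% lower. In KPC 3 were higher and 1 lower, where 3.69% of 9920 genes were higher and 5.55% lower. The venule over tip comparison counted 5 higher and 0 lower in PyMT (5.06% and 3% of genes) and 6 and 1 in KPC (4.67% and 3.09%). Venule over artery counted 3 and 0 in PyMT (10.2% and 6.80%) and 3 and 2 in KPC (9.68% and 11%). The median log2 ratio of the receptors over tip cells was 1.88 in PyMT and 1.39 in KPC, beside 0.03 and 0.00 for all genes. These are descriptions of 9 genes chosen with earlier results known, and a share of genes is no test of the group.

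**Figure D3:**
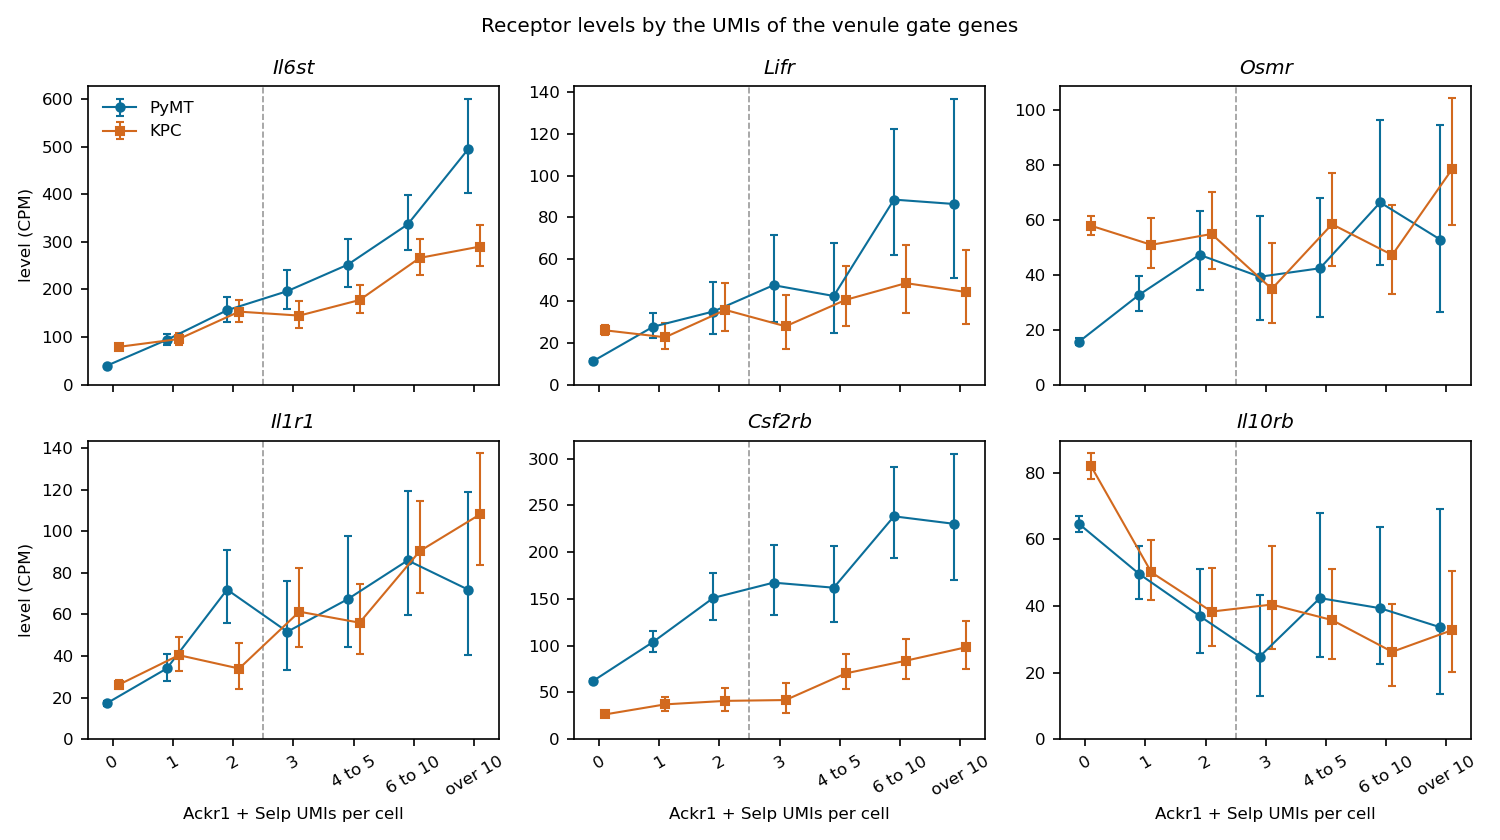
Level in CPM of 6 receptors (vertical axes, from 0) by the number of Ackr1 and Selp UMIs in a cell, among cells in no earlier class, in PyMT (circles) and KPC (squares), with exact 95% counting intervals. The dashed line is the venule threshold. Il6st was highest above 10 UMIs, at 494 CPM in PyMT and 290 in KPC, and Il10rb was highest where neither gene was detected.

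The receptors were next read along the 2 venule genes, since a class boundary at 3 UMIs is arbitrary. Among cells in no earlier class, Il6st was at 39.5 CPM in PyMT and 79.2 in KPC where neither Ackr1 nor Selp was detected, and at 494 and 290 CPM above 10 UMIs. Just outside the threshold, at 2 UMIs, it was at 156 and 153 CPM, and just inside, at 3 UMIs, at 196 and 145. Il6st thus went up with the venule genes, with no step at the threshold. Il1r1 ran from 17.2 to 72.0 CPM in PyMT and from 26.2 to 108 in KPC between the lowest and highest bins. Csf2rb ran from 62.1 to 230 CPM in PyMT and from 26.4 to 98.3 in KPC. Osmr ran from 15.6 to 52.8 CPM in PyMT, while in KPC it was at 57.9 CPM in the lowest bin and 78.7 in the highest. That highest bin rests on 48 UMIs (58.0 to 104). The KPC bins between them lay from 34.9 to 58.4 CPM, so Osmr did not go up steadily with the venule genes there. Il10rb ran the other way, from 64.6 to 33.6 CPM in PyMT and from 82.0 to 32.8 in KPC.

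The share of cells with at least 1 Il6st UMI was compared at a fixed depth of 2000 UMIs per cell. It was 40.0% of 285 venule cells in PyMT (34.3 to 45.9) and 36.2% of 533 in KPC (32.1 to 40.5), with 75 and 107 shallower cells left out. Capillary cells had 10.1% of 2367 in PyMT and 17.3% of 597 in KPC, with 230 and 700 left out. The KPC capillary share thus describes the deeper part of its class. Tip cells had 6.85% and 11.5%, with 50 and 65 left out. For comparison, the share was also taken in the Krt8/Krt18 cells of PyMT, at 5.04% (3.06 to 7.76), and the tumor cells of KPC, at 2.54% (1.56 to 3.89). Whether the Il6st UMIs of these cells are their own or stray RNA was not tested. Those cells were deeper before thinning, at medians of 6939 and 12688.5 UMIs, and without thinning their shares were 12.7% and 13.2%, against 18.6% in tip cells of PyMT and 20.0% in capillary cells of KPC. At equal depth the interval of the tip share of PyMT, 5.77 to 8.07, overlapped that of the Krt8/Krt18 cells, while the venule shares lay above these levels with and without thinning. Without thinning the venule shares were 63.3% and 54.5%. The joint shares and products that follow are again at 2000 UMIs per cell, with the same shallower cells left out. Il6st and Lifr were both detected in 9.12% of PyMT venule cells and 0.89% of capillary cells, and in 3.19% and 1.68% in KPC. Il6st and Osmr were both detected in 3.51% of PyMT and 6.57% of KPC venule cells. The products of the single shares for Il6st and Lifr were 5.61% in PyMT and 2.79% in KPC venule cells, beside counting intervals of the joint shares of 6.05% to 13.1% and 1.87% to 5.06%. For Il6st and Osmr the products were 2.95% and 4.35%, beside 1.7% to 6.36% and 4.62% to 9.01%. In venule cells the product thus lay inside the interval for Il6st with Lifr in KPC and for Il6st with Osmr in PyMT. In capillary cells the Il6st and Lifr products were 0.41% in PyMT and 0.90% in KPC, beside 0.55% to 1.35% and 0.81% to 3.06%. A joint share above the product was therefore not particular to venule cells.

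Lymphatic cells carried less of most of these receptors than the venule, artery, tip and capillary cells pooled. None was 2-fold higher and 4 were 2-fold lower in PyMT (6.63% and 5.28% of genes), and 0 and 6 in KPC (7.10% and 8.05%). Csf2rb differed most, at 11.2 against 87.2 CPM in PyMT (log2 ratio -2.95, -3.53 to -2.44) and 5.65 against 28.6 in KPC (-2.34, -3.06 to -1.69). Il1r1 and Tnfrsf1a were also past 2-fold in both libraries, with log2 ratios of -1.70 and -1.08 in PyMT and -2.06 and -1.02 in KPC. Osmr was the exception in both libraries against the pool, at 36.4 CPM in PyMT and 67.0 in KPC lymphatic cells, log2 ratios of 0.97 (0.64 to 1.28) and 0.55 (0.33 to 0.76). Within the pool its level ran from 9.91 CPM in tip to 49.3 in venule cells of PyMT. In KPC it ran from 20.5 in tip to 111 in artery cells, so lymphatic cells were not above every blood vessel class. The KPC ratio ranged from 0.12, with each cell weighted equally, to 1.06, with gate thresholds doubled. Il6st, at 0.57 (0.36 to 0.77) and -0.10 (-0.28 to 0.08), was higher in lymphatic cells than in the pool beyond counting error in PyMT and not in KPC. Its lymphatic levels were 85.1 CPM in PyMT and 89.6 in KPC, beside 57.2 and 95.8 in the pools. Venule cells were 360 of the 5074 pooled cells in PyMT and 640 of 3344 in KPC. In PyMT the lymphatic level of Il6st lay below the venule level of 291 CPM. The KPC count was 2 in place of 6 when cells meeting several gates were left out, and log2 ratios of Tnfrsf1a, Ifngr1, Il10rb and Lifr lay between -1.09 and -1.02 with them in. Podoplanin, a lymphatic surface protein, was among the proteins depleted before the sort, so these cells are those that escaped it.

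Csf2rb was lower in KPC than in PyMT in each blood vessel class, and it was the receptor past 2-fold in all of them. The log2 ratios were -1.42 (-1.68 to -1.16) in venule, -1.96 (-2.28 to -1.66) in tip, -1.85 (-2.14 to -1.57) in capillary and -2.24 (-3.52 to -1.17) in artery cells. The near copy Csf2rb2 was lower as well, at -1.66 in venule, -3.12 in tip and -2.35 in capillary cells. Osmr was higher in KPC, at a log2 ratio of 2.03 (1.80 to 2.27) in capillary, 1.24 (0.44 to 2.06) in artery and 1.05 (0.71 to 1.39) in tip cells, and 0.13 (-0.28 to 0.55) in venule cells. The Osmr ratio was 0.97, under 2-fold, both in capillary cells set by Cd300lg alone and in tip cells after centring on the median of all genes, and it was 2.77 in capillary cells set by Car4 alone. Cells that met no gate, 5603 in PyMT and 4089 in KPC, had another pattern, with Csf2rb at -0.32 (-0.48 to -0.16) and 4 receptors past 2-fold toward KPC, Osmr (1.98), Lifr (1.63), Il6st (1.12) and Il1r1 (1.04), where 8.04% of genes were that much higher and 2.01% lower. In venule cells 1 of the 9 was 2-fold apart, Csf2rb, where 4.16% of 9678 genes were higher and 2.49% lower in KPC. In tip and capillary cells 1 was higher and 1 lower, beside 4.63% and 1.5% of genes in tip and 10% and 3.34% in capillary cells. Each model is 1 library, and the capillary ratios had a median of 0.13 over all genes. Set by Car4 alone, the capillary class had 5 receptors apart, and by Cd300lg alone 1, settings chosen after seeing the data.

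**Figure D4:**
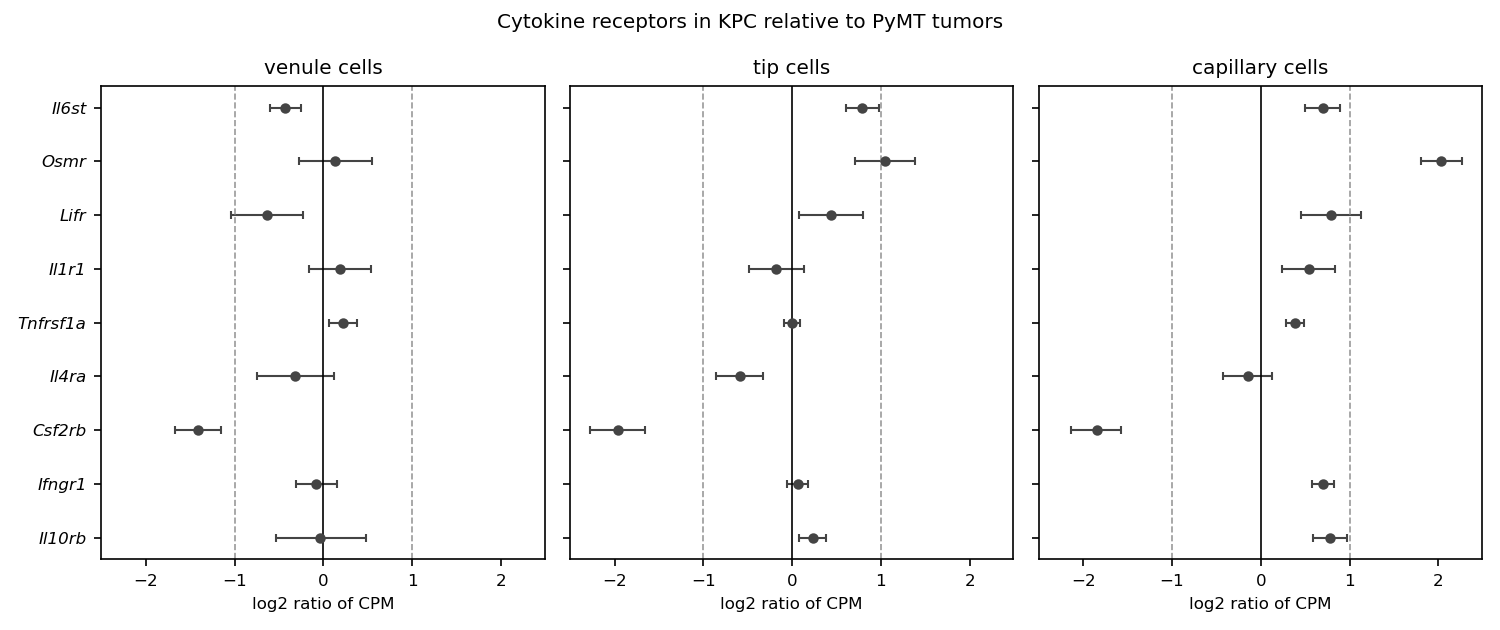
Log2 ratio of CPM in KPC over PyMT for the 9 receptors in venule, tip and capillary cells, with exact 95% counting intervals and dashed lines at 2-fold. Csf2rb lay past 2-fold to the left in all 3 panels, and Osmr past it to the right in tip and capillary cells.

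Few of the listed ligands of these receptors, leaving aside the interleukin 1 family, were above the level minimum in these libraries. Interleukin 1 family ligands are not in the counts here, and levels of Il1rn and Il33 in KPC are given in the closing section. Of 8 gp130 family ligands, 2 in PyMT and 3 in KPC reached 5 CPM over all cells of a library. Il6 was at 55.3 CPM in PyMT and 62.8 in KPC venule cells against 16.5 and 36.1 in capillary cells (log2 ratios 1.74, 1.36 to 2.12, and 0.80, 0.47 to 1.14). Fibroblasts of KPC had Il6 at 284 CPM and its pericyte class at 120. Clcf1, a further gp130 family ligand, was at 5.33 CPM in PyMT and 1.71 in KPC venule cells and at 12.3 and 9.27 in artery cells, the latter on 6 and 3 UMIs, and at 51.6 in the tumor cells of KPC. Il6ra, the chain that binds interleukin 6 before gp130, was at 5.33 CPM in PyMT and 1.02 in KPC venule cells. Of 11 ligands of the other receptors except Il1r1, which include Il4, Il13, Csf2, Tnf and Ifng, 0 in PyMT and 2 in KPC reached 5 CPM over all cells of a library. Ifng and Il13 were at 0 UMIs in the venule cells of both. Cells carrying CD45 were depleted before the sort, so these levels do not describe ligands made by leukocytes in the tumors.

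The wider receptor families were counted over genes of at least 5 CPM over the library, beside 3.63% of all genes higher and 2.39% lower in venule than capillary cells of PyMT and 3.69% and 5.55% in KPC. Of 8 gp130 family receptors 4 reached that level, and of these 3 were 2-fold higher in PyMT and 1 in KPC, all of them Il6st, Osmr or Lifr. Of 8 interleukin 1 family receptors 3 reached it in PyMT and 2 in KPC, and Il1r1 was the 1 that was higher. Of 8 interleukin 4 and common gamma receptors 4 reached it and 0 were apart in either library. Of 8 tumor necrosis factor receptors 7 and 8 reached it and 0 were higher, and the decoy receptor Tnfrsf11b was lower in both, at 2.67 against 18.3 CPM in PyMT and 4.44 against 11.7 in KPC, where Fas, a death receptor, was lower as well. Of 9 interferon and interleukin 10 receptors 5 reached it, with 0 apart in PyMT and 1, Il10rb, lower in KPC. The common beta receptors are not among these counts. Of them, Csf2rb2, not 1 of the 9 receptors, was past 2-fold higher in venule cells of both libraries. Its log2 ratios were 1.12 (0.91 to 1.33) in PyMT and 1.80 (1.33 to 2.30) in KPC, beside 0.77 and 1.20 for Csf2rb.

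Among the kinases that these receptors bind, Jak1 was at 357 CPM in PyMT and 317 in KPC venule cells, and Jak2 was higher in venule than in capillary cells by log2 ratios of 1.0 (0.71 to 1.28) and 1.01 (0.67 to 1.36). The shares of all genes given for the receptor families apply to these venule over capillary counts too. Of 11 JAK and STAT genes, 9 of them at the level minimum in PyMT and 8 in KPC, 2 were 2-fold higher in PyMT venule than capillary cells, Jak2 and Stat5b, and 1, Jak2, in KPC. Of 10 STAT3 target genes, a list that includes Tnfrsf1a, 2 were higher in venule cells in each library, and both times these were Lrg1, a secreted glycoprotein, and Icam1, a leukocyte adhesion molecule. Lrg1 was at 2814 CPM in PyMT and 3576 in KPC venule cells against 1158 and 770 in capillary cells. Icam1 was at 137 and 233 CPM against 34.6 and 90.3. Of 11 NF-kB target genes, 9 and 11 at the level minimum, 4 were higher in PyMT and 5 in KPC and 0 lower, with Icam1, Vcam1 and Traf1 in both. Lrg1, Icam1 and Vcam1 are also among the venule markers used to check the class. Of 10 feedback inhibitors, 8 and 9 at the level minimum, 1 was higher in PyMT, Socs2 (324 against 151 CPM, with a log2 ratio of 0.89 in KPC), and 1 was lower in KPC, Socs1 (15.4 against 32.7 CPM). Of 11 interferon gamma target genes, 9 and 10 at the level minimum, 1 was higher in PyMT, Gbp2, while 3 were higher and 1 lower in KPC. Of 8 adaptors of the interleukin 1 and tumor necrosis factor receptors, 0 were 2-fold apart in either library.

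Between capillary cells of the tumors, 6 of the 10 STAT3 target genes were at least 2-fold higher in KPC and 0 lower, where 10% of all genes were higher and 3.34% lower. Among the 6 were Socs3 at 591 against 150 CPM and Cebpd at 301 against 72.6. Junb, 1 of the 6, is also among the immediate early genes summed above, and their summed level was 7756 against 1856 CPM in the same cells. Whether others of the 6 respond in the same way was not examined. Stat3 itself was at 127 against 63.0 CPM. The part of the immediate early response in these values was not tested.

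Over 16 sums, 1 for each class with at least 50 cells in each library, the gene most alike Osmr in its log2 levels among 7383 genes was Stat3 (Pearson r 0.97), and that most alike Csf2rb was Csf2rb2 (0.95). Il1r1 was most alike Il6 (0.87), Tnfrsf1a most alike Xbp1 (0.96), Ifngr1 most alike Abcc4 (0.95) and Il6st most alike Mustn1 (0.92). For Lifr it was Fosl2 (0.90), for Il4ra Tor2a (0.91) and for Il10rb Cdc42ep1 (0.88). Sums of a library share its depth and its background, and these values describe likeness across 16 points.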

How the data were processed

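Droplet libraries of tumor endothelial cells, 1 from PyMT and 1 from KPC tumors, were analysed. The authors aligned reads to mm10 with Cell Ranger (3.0 in the submitters' processing notes, 3.0.2 in the matrix header) and deposited raw UMI counts per gene and barcode, without normalization. The paper's methods name v3 chemistry in one place and v2 in another.

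From these counts, barcodes with fewer than 500 genes, or with 10% or more of their UMIs from mitochondrial genes, were removed (720 in PyMT, 645 in KPC). Kept cells had a median of 3978 UMIs in PyMT and 3141 in KPC. Cells took the first class whose gate they met, in the order Krt8/Krt18 (5 UMIs of both together), fibroblast (Col1a1 and Col1a2, 10), lymphatic, pericyte (Notch3 and Higd1b, 2), venule, artery, tip and capillary. UMIs were summed per class and given as CPM with exact Poisson intervals, and ratios with exact conditional binomial intervals, at 95%. Shares have Clopper-Pearson intervals. All cover counting error only, and no p-value was computed. A class at 0 UMIs was set at 3 UMIs for a ratio. For the shares of all genes, the log2 ratio was set at 0 where both classes were at or under 3 UMIs. Such genes stayed in the total as not apart. Shares of all genes cover genes of at least 5 CPM over the kept cells, without the gate genes. Likeness used log2(CPM + 1) of genes at 10 CPM or more in both libraries.

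Text names all 9 receptors, at most 6 genes of each of the other pathway lists, those of the highest level first and those 2-fold apart the same way in both libraries, and the most alike gene of each receptor. Outside that rule, ligands, partner chains and near copies, and Stat5b, Socs2, Socs1, Gbp2 and Fas, apart in 1 library, were named after their values were seen. The receptors and lists were chosen with earlier results of these data known. No doublet caller was run, and leaving out the deepest 8% of cells was tried in its place. Other alternatives changed the filters, gates and their order, the weight of cells, depth, centring and the fold, and gates on 1 gene were added after seeing the data. The calculation of ratios was checked on simulated counts for the venule over capillary comparison, with 200 genes set at a log2 ratio of 1.5 in either direction. Of 9217 genes in PyMT and 9935 in KPC, 96.2% and 96.4% of intervals held the set ratio. Of the changed genes, 94.0% and 95.0% passed 2-fold. Counts were drawn with counting error only, the error that the intervals assume, so coverage near 95% was built in. Differences between cells, mice or libraries were not simulated, and these shares do not measure them. Python 3.11.15, numpy 2.4.6, scipy 1.17.1, pandas 2.3.3 and matplotlib 3.10.9 were used. Positions are from GENCODE M21 (GRCm38) and upstream sequences from RefSeq (GRCm38.p6), which covered 7 of the 9 genes, all but Csf2rb and Il10rb.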

Additional observations from a re-analysis of the deposited data

Results flagged for a closer look

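The venule over capillary log2 ratios of 2 receptors pointed opposite ways in the tumor models, and with 1 library per model the difference was not tested. Osmr was at 1.12 in PyMT and -0.79 in KPC, and the KPC value ranged from -1.40, with capillary cells set by Car4 alone, to -0.09, with the gates in reverse order. Ifngr1 was at 0.30 in PyMT and -0.49 in KPC. In both cases the KPC capillary cells, whose median depth was 1879 UMIs, had the higher level.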

How the results depend on the processing

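Of 1170 recomputed ratios of single receptors, 998 moved by less than counting error, 172 moved further and 41 changed sign, none of them for a receptor 2-fold apart. The ratio of Il6st in venule over capillary cells ranged from 2.06 to 2.85 in PyMT and from 1.18 to 1.94 in KPC. That of Il1r1 ranged from 1.20 to 1.63 in PyMT and from 0.96 to 2.02 in KPC. The lowest KPC value, under 2-fold, came with a filter of at least 1000 genes and under 5% mitochondrial UMIs. Counts of receptors 2-fold apart stayed within 1.5 times the reported count except as follows. For lymphatic over blood vessel cells in KPC, 6 became 2 without cells that meet several gates and 2 with the gates reversed. For venule over artery cells in KPC, 5 became 3 with each cell weighted equally. For KPC over PyMT, tip cells went from 2 to 1 after centring on all genes, and capillary cells from 2 to 5 on Car4 alone and 1 on Cd300lg alone, gates chosen after seeing the data. At 1.5-fold the counts were 7 for venule over artery and 8 for venule over tip cells in PyMT, and 2, 4 and 6 for KPC over PyMT in venule, tip and capillary cells. The causes were not tested. Artery values rest on 126 and 105 cells. No replicate could be left out. No paired analysis was possible because each tumor model had 1 library and no result comes from a test.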

Other observations

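Il2rg, the common gamma chain best known from lymphocytes, was at 86.7 CPM in PyMT and 87.4 in KPC venule cells and at 99.7 and 69.6 CPM in lymphatic cells. Ptprc, the pan-leukocyte gene, had 0 and 3 UMIs in these venule classes, and cells carrying its product CD45 were depleted before the sort. The list of 8 immune markers summed to 10.7 and 31.4 CPM in the same classes. Whether leukocytes gave part of the Il2rg UMIs was not tested. Il2rg was at 3.95 CPM in tumor cells of KPC. Il13ra1, the other chain that pairs with the product of Il4ra, was at 86.0 CPM in PyMT and 53.3 in KPC venule cells and at 20.6 and 13.3 in lymphatic cells. Il11ra1, the binding chain for interleukin 11, was at 35.3 CPM in PyMT venule and 147 in lymphatic cells.

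Tumor cells of KPC, which were not the aim of the sort, carried several cytokine and receptor genes that were scarce in KPC venule cells. Csf2, which encodes GM-CSF, was at 65.4 CPM there and 1.02 in KPC venule cells, and Il5ra was at 175 against 1.02 CPM. Il1rn, the interleukin 1 receptor antagonist, was at 186 CPM and Tnf at 26.3, against 1.37 and 0 in venule cells. Il33, which is not compared with venule cells here, was at 122 CPM in these tumor cells and 292 in KPC fibroblasts. These genes were named after their values were seen.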
